A study of Mus musculus with 4 samples.

Results

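The genes described here are 10 of the 32285 genes that each count table lists. They encode enzymes that make prostaglandins and thromboxane, the enzyme that begins their breakdown, and a pair of receptors for prostaglandin E2. They were chosen by symbol: Ptgs1, Ptgs2, Ptges, Ptgis, Ptgds, Hpgds, Tbxas1, Hpgd, Ptger2 and Ptger4. All 10 were found, and their unique molecular identifiers (UMIs, 1 per captured transcript) were counted by cell lineage in all 4 libraries.

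The libraries were droplet-based 3′ single-cell RNA sequencing of lung and of synovium, the tissue that lines joints. TNF+ mice carried a human TNF transgene, a model of inflammatory-erosive arthritis with pulmonary vascular disease, and TNF- mice were their littermates without it. All mice were females, aged 4 months. Before capture the tissue of each group was pooled, from 3 to 5 mice per genotype for lung and from 5 to 10 for synovium, digested with enzymes (collagenase, elastase and dispase for lung, type II collagenase for synovium) and sorted for viable cells. Each of the 4 groups (synovium TNF-, synovium TNF+, lung TNF-, lung TNF+) was therefore 1 library, no difference below has a replicate check, and no p-value is given. The human transgene was not in the mouse reference and was not measured, and the sources used here do not name the cells in which it is active. Mouse Tnf was at 35.2 and 113 CPM (counts per 1e6 UMIs) in TNF- and TNF+ lung, and at 16.8 and 75.1 CPM in TNF- and TNF+ synovium.

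Prostaglandins are short-lived lipid signals made from arachidonic acid. A cyclooxygenase, Ptgs1 (COX-1, present in many resting cells) or Ptgs2 (COX-2, induced quickly by cytokines, growth factors and handling), makes the common precursor prostaglandin H2. A terminal synthase then sets the product: Ptges makes prostaglandin E2, Ptgis prostacyclin, Ptgds and Hpgds prostaglandin D2, and Tbxas1 thromboxane A2. In the joint, prostaglandin E2 is known for pain, vessel dilation and bone loss. In the lung, prostacyclin from the vessel wall relaxes vessels and thromboxane from platelets constricts them. Hpgd oxidises prostaglandins to inactive forms, a task for which the lung is known, and Ptger2 and Ptger4 (EP2 and EP4) raise cyclic AMP when prostaglandin E2 binds.

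In mouse build GRCm38 (mm10) the GENCODE vM21 annotation places Ptgs1 at chr2:36230426-36252272 (plus strand), Ptgs2 at chr1:150100031-150108227 (plus), Ptges at chr2:30889471-30929863 (minus), Ptgis at chr2:167191805-167240604 (minus), Ptgds at chr2:25466709-25470046 (minus) and Hpgds at chr6:65117293-65144908 (minus). Tbxas1 lies at chr6:38875404-39084585 (plus), Hpgd at chr8:56294585-56321043 (plus), Ptger2 at chr14:44988195-45003820 (plus) and Ptger4 at chr15:5206661-5244187 (minus). Genes of the opposite strand that overlap them and were counted are 1110018N20Rik and Gm14291 at Ptgis, Gm17173 at Ptger2, Ttc33 at Ptger4, and Hipk2, Gm42962 and 1700025N23Rik at Tbxas1. Cell Ranger, which made the counts, assigns a read only to a gene in the sense of the read.

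The 250 bases before the start of both cyclooxygenase genes and of Ptges are shown because these are the genes of the prostaglandin E2 branch whose levels the synovial comparison turns on. They come from the RefSeq promoter table of GRCm38.p6, which held 9 of the 10 genes (Ptgis was not among them), and read 5′ to 3′ on the strand of the gene. Capitals mark matches, on either strand, to 5 searched motifs: a TATA box (TATAAA), a GC box (GGGCGG), the core of a cyclic AMP response element (TGACG), an E-box (CACGTG) and an NF-kappa-B-like motif (GGG, then any 5 bases, then CC).
Ptgs1 chr2:36230176-36230425: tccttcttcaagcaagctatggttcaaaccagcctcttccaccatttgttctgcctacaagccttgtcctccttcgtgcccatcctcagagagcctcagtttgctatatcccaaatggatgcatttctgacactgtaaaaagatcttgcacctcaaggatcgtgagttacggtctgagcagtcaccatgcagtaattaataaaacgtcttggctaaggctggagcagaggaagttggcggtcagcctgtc
Ptgs2 chr1:150099781-150100030: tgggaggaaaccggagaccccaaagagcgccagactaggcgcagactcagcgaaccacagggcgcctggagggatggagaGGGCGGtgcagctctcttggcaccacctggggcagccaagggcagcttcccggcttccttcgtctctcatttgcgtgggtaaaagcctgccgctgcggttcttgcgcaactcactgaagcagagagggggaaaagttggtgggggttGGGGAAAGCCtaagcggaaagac
Ptges chr2:30903298-30903547: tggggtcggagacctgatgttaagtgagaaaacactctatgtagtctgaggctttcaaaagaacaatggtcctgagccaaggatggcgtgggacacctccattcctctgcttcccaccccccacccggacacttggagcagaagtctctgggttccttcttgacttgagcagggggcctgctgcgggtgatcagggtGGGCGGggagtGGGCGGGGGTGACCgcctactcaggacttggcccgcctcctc
Ptgs1 had none of these letters in the window. Ptgs2 had a GC box 170 bases and an NF-kappa-B-like match (GGGGAAAGCC) 23 bases before its start. Ptges had GC boxes 53 and 42 bases before its start, and the second overlaps an NF-kappa-B-like match (GGGGGTGACC) that begins 38 bases before it. This RefSeq start of Ptges lies inside the longer GENCODE gene. Such letters are common: of 32851 promoters of the same length, 45.8% held the NF-kappa-B-like motif, 32.7% the GC box, 17.8% the TGACG core, 12.4% the TATA box and 6.02% the E-box. A match describes the sequence and says nothing of binding.

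Kept cells numbered 6200 (synovium TNF-), 3152 (synovium TNF+), 6998 (lung TNF-) and 9174 (lung TNF+), with medians of 12492, 8728, 7137 and 8403 UMIs. In TNF+ synovium 17.6% of barcodes were over the mitochondrial limit, beside 1.41% to 3.78% in the other libraries. Of all barcodes, 86 occurred in more than 1 library, at most 21 in any pair. Cells were clustered within each tissue without the prostaglandin genes, and a cluster was named for the cell type whose markers it held, so each name stands for cells like that type. Several clusters came almost wholly from 1 library. Cell make-up differed between genotypes: mesenchyme-like cells (fibroblast, mural and tendon types) were 57.4% of TNF- and 16.1% of TNF+ synovial cells, and myeloid-like cells were 10.1% and 38.9%. In lung, endothelium-like cells were 32.8% of TNF- and 4.47% of TNF+ cells, and myeloid-like cells were 14.8% and 51.6%.

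Over all synovial cells the COX-1 and breakdown genes were lower, and thromboxane synthase and EP2 higher, in TNF+ than in TNF- tissue. Ptgs1 had 9.63 CPM (95% Poisson interval 8.95 to 10.4) in the TNF- library and 3.30 CPM (2.71 to 3.98) in the TNF+ library. Hpgd was at 29.9 CPM (28.7 to 31.2) and 8.90 CPM (7.91 to 9.97). These intervals, like all below, cover counting error only. For Tbxas1 the levels were 12 and 24.3 CPM, and Ptger2 at 1.85 and 4.51 CPM. A gene was called where the CPM ratio was at least 2 or at most 0.5 with at least 20 UMIs over both libraries. By that rule 2 of the 10 genes were higher and 2 lower in TNF+ synovium, where 33.6% of 19255 genes with enough UMIs passed the same fold in either direction (11.8% higher, 21.9% lower). As log2 ratios (TNF+ over TNF-) these were -1.55 (-1.85 to -1.25) for Ptgs1, -1.75 (-1.93 to -1.57) for Hpgd, 1.28 (0.94 to 1.63) for Ptger2 and 1.02 (0.88 to 1.16) for Tbxas1. The other 6 genes were within 2-fold. The Tbxas1 ratio was 0.36 with every deposited barcode kept and 0.79 as UMIs per cell, and with each cell weighted equally Ptgs1 (-0.90) and Hpgd (-0.99) were within 2-fold.

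Prostaglandin E2 synthesis genes differed less over the whole synovium. TNF- tissue had Ptgs2 at 209 CPM (206 to 213) and TNF+ tissue at 149.9 CPM (146 to 154), a log2 ratio of -0.48. Ptges was at 40.9 and 28.9 CPM (-0.50), Ptgis at 33.4 and 19.1 CPM (-0.81) and Ptger4 at 33.4 and 20.2 CPM (-0.73). Hpgds was at 2.74 and 4.96 CPM (0.86). Ptgds was nearly absent, with 16 UMIs in TNF- and 13 in TNF+ synovium. The median log2 ratio over the 10 genes was -0.49, beside -0.17 over all genes tested.

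Over all lung cells 4 of the 9 genes with enough UMIs were lower and 1 higher in TNF+ tissue, against 31.3% of 19510 genes past the fold (25.5% lower, 5.79% higher). Hpgd, the breakdown enzyme, had 743 CPM (736 to 750.1) without and 105 CPM (103 to 107) with the transgene, a log2 ratio of -2.82 (-2.86 to -2.79). Prostacyclin synthase Ptgis was at 43.3 CPM (41.5 to 45.1) and 2.97 CPM (2.62 to 3.37), a log2 ratio of -3.86 (-4.06 to -3.67). Both cyclooxygenase genes were lower as well. Ptgs1 was at 30.1 and 7.33 CPM (-2.04) and Ptgs2 at 14.2 and 2.42 CPM (-2.55). With every deposited barcode kept the Ptgs1 ratio was -0.63, within 2-fold. The EP4 gene Ptger4 was higher, at 35.6 CPM (34.0 to 37.2) and 71.8 CPM (70.1 to 73.7), a log2 ratio of 1.01 (0.94 to 1.09) that lies at the edge of the 2-fold rule. Ptges, Hpgds, Ptger2 and Tbxas1 had log2 ratios from 0.12 to 0.67, and Ptgds had 3 and 8 UMIs.

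**Figure D1:**
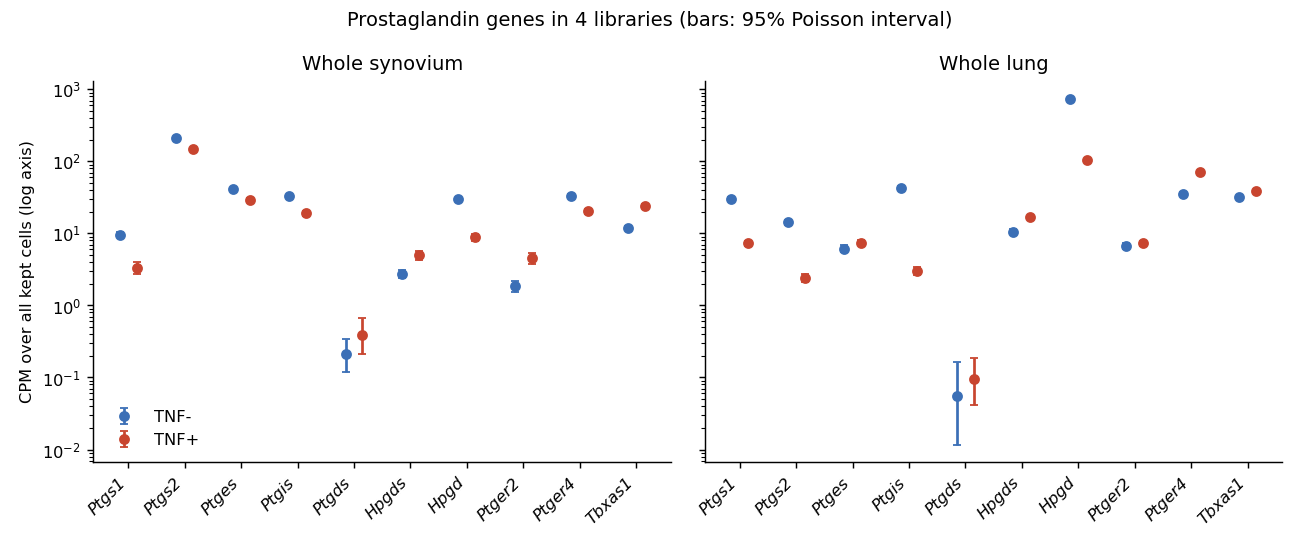
CPM of the 10 genes over all kept cells of synovium (left) and lung (right) on a log axis, with TNF- in blue, TNF+ in red and bars for the 95% Poisson interval. Hpgd and Ptgis in lung show the widest gaps between genotypes, and Ptgds lies below 1 CPM in all 4 libraries.

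In a whole tissue, fewer cells of a type and less RNA of the gene in each cell cannot be told apart, so the levels were set by lineage. In TNF- synovium Ptgs2, Ptges and Ptgis lay mostly in mesenchyme-like cells. These held 94.7% of Ptgs2 UMIs, 95.3% of Ptges UMIs and 97.8% of Ptgis UMIs. Ptgs1 was highest by CPM in endothelium-like cells, which held 9.95% of its UMIs in TNF- and 54.1% in TNF+ synovium. In the TNF+ library mesenchyme-like cells held 33.3% of Ptgs2 UMIs (95% exact binomial interval 32.0 to 34.6), and 62.8% were in myeloid-like cells, from 3.49% in TNF-. For Ptges 63.8% of TNF+ UMIs were in myeloid-like cells, from 0.481% in TNF-. Ptgis was mesenchymal in both, with 85.8% of its TNF+ UMIs there. Thromboxane synthase Tbxas1 was myeloid in both libraries, at 78.8% and 92.4% of its UMIs.

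**Figure D2:**
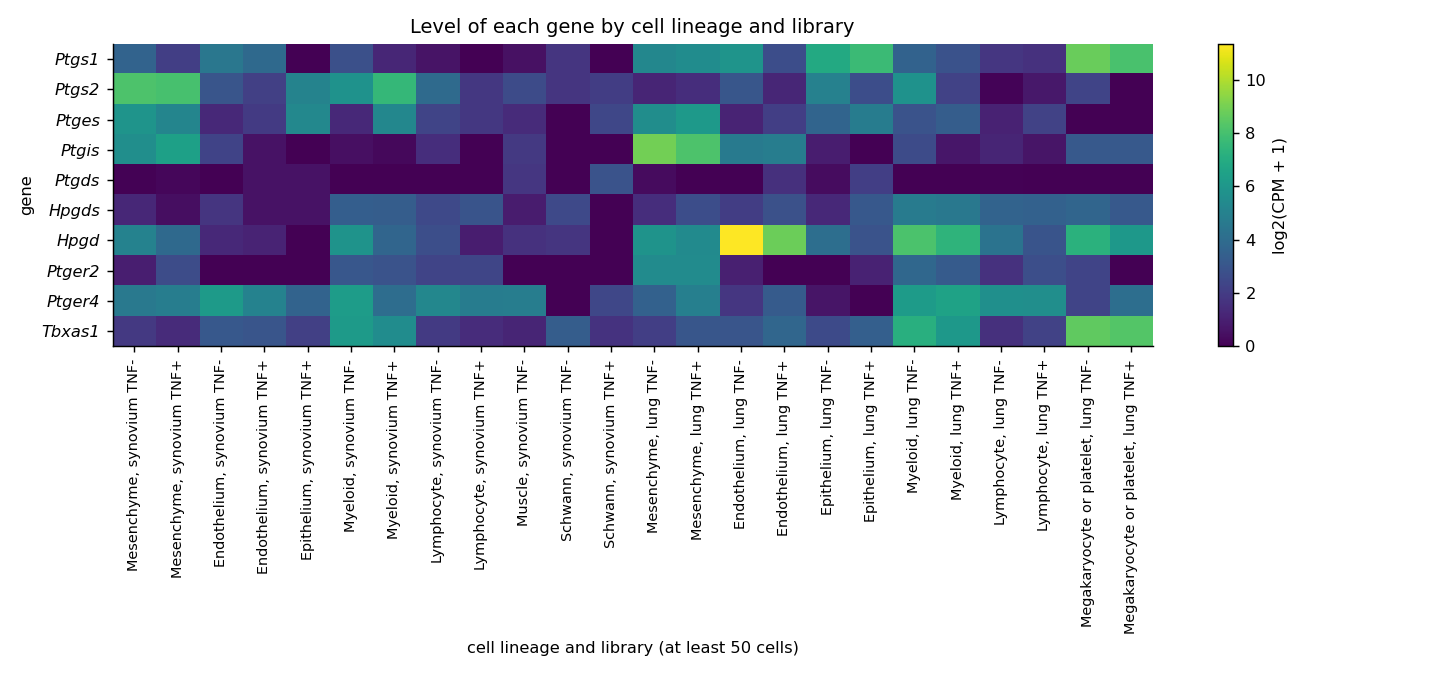
Colour gives log2(CPM + 1) of each gene (vertical axis) in each cell lineage and library with at least 50 cells (horizontal axis). Hpgd is brightest in TNF- lung endothelium, Ptgs2 in synovial mesenchyme of both genotypes, Ptgis in lung mesenchyme, and Ptgs1 and Tbxas1 in lung platelets.

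Within synovial lineages 26 pairs of gene and lineage had enough UMIs, of which 3 were higher, 9 lower and 14 within 2-fold. The share of all genes past the fold was 29.3% in myeloid-like cells (9.29% higher, 20% lower), 32.8% in mesenchyme-like cells (9.21% and 23.6%), 17.8% in endothelium-like cells (7.75% and 10.0%) and 20.3% in lymphocyte-like cells (7.66% and 12.7%). Schwann-like cells, where 24.9% of genes passed (11.7% and 13.2%), had too few UMIs of every member.

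Myeloid-like cells of TNF+ synovium had more RNA of both prostaglandin E2 synthesis genes. Their Ptgs2 stood at 54.8 CPM (556 UMIs) in the TNF- and 187 CPM (3109 UMIs) in the TNF+ library, 3.41-fold higher (log2 ratio 1.77, 1.64 to 1.90). Ptges was at 1.48 CPM (15 UMIs) and 36.6 CPM (609 UMIs), 24.8-fold higher (4.63, 3.90 to 5.48). With every deposited barcode kept, the log2 ratio of Ptges was 3.08.

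These differences lay in cells that the TNF- library hardly held. A macrophage-like cluster led by Cxcl3, Cxcl2, Trem2 and Spp1, with 722 TNF+ and 6 TNF- cells, held 2869 of the 3109 Ptgs2 UMIs at 235 CPM (227 to 244) and 571 of the 609 Ptges UMIs at 46.8 CPM (43.1 to 50.8). Its level of Hpgd was 3.20 CPM. Osteoclast-like cells, 148 TNF+ and 12 TNF-, had Ptgs2 at 46.7 CPM (34.5 to 61.7) and Ptges at 25.7 CPM (17.0 to 37.4) in TNF+. Myeloid-like clusters with at least 50 cells of each library were dendritic-like cells and nonclassical monocyte-like cells. Over those clusters the log2 ratio of Ptgs2 was 0.45 and no longer past 2-fold, and Ptges had under 20 UMIs. Ptgs2 in dendritic-like cells was at 46.6 and 69.8 CPM (0.58), and in nonclassical monocyte-like cells at 23.2 CPM (16.7 to 31.3) and 46.9 CPM (37.0 to 58.7), a log2 ratio of 1.02 (0.46 to 1.6).

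After each cell was thinned to 1000 UMIs, Ptgs2 was found in 1.39% of TNF- and 11% (9.05 to 13.1) of TNF+ macrophage-like synovial cells (13.4% and 36.2% unthinned, median depths 13113 and 14275 UMIs). Ptges was found in 0.463% and 3.10% (2.10 to 4.39) of them (1.84% and 18.0% unthinned). T-like cells, taken as the class without these enzymes, had either gene in 0 of 126 cells of each library after thinning, at median depths of 10150 and 6167 UMIs. A count of 0 there allows a share of up to 2.38% (3 cells), so the TNF- macrophage-like shares of both genes lie under that limit, and the TNF+ interval of Ptges reaches below it. Unthinned, 4.72% and 0.763% of T-like cells had a Ptgs2 UMI. In TNF+ macrophage-like cells Ptges was seen in 8.49% (9 cells) of the 106 cells with a Ptgs2 UMI and in 2.44% of those without. In TNF- fibroblast-like cells the shares were 5.36% and 5.82%. The macrophage-like class joins several clusters, and most UMIs of both genes lay in 1 of them. Whether the genes go together within a cluster was not tested.

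Ptgs2 is itself an immediate-early gene, and enzymatic digestion is known to raise such genes. The 12 listed immediate-early and dissociation genes summed in myeloid-like cells to 6979 CPM without and 3553 CPM with the transgene, with 9 lower and 1 higher (Ier3, at 355 and 965 CPM). Over the whole synovium they summed to 14306 and 5949 CPM. Their sum was lower where Ptgs2 was higher in myeloid-like cells, and their part in its level was not tested.

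Other steps of the pathway were lower in synovial myeloid-like cells. Hpgd was at 56.3 and 12 CPM (-2.23, -2.47 to -1.99), Ptger4 at 76.5 and 15.4 CPM (-2.31, -2.52 to -2.10) and Ptgs1 at 5.91 and 1.32 CPM (-2.16). Hpgd was concentrated in nonclassical monocyte-like cells, at 176 CPM (157 to 197) and 83.5 CPM (70.1 to 98.7), and in C1q-rich macrophage-like cells, at 145 CPM in 68 TNF- cells and 39.2 CPM in 25 TNF+ cells. Over the clusters that both libraries held, the Hpgd ratio was 0.01, although it was -1.08 in nonclassical monocyte-like and -0.94 in dendritic-like cells taken singly. Nonclassical monocyte-like cells, which have more Hpgd, were 143 of the TNF- and 223 of the TNF+ cells, and dendritic-like cells 372 and 84. For Ptger4 the same clusters gave -1.07, with dendritic-like cells at 85.7 and 36.0 CPM and nonclassical monocyte-like cells at 38.1 and 36.6 CPM. Hpgds was at 9.46 and 9.08 CPM, Ptger2 at 7.39 and 6.37 CPM and Tbxas1 at 70.9 and 44.6 CPM, all within 2-fold.

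**Figure D3:**
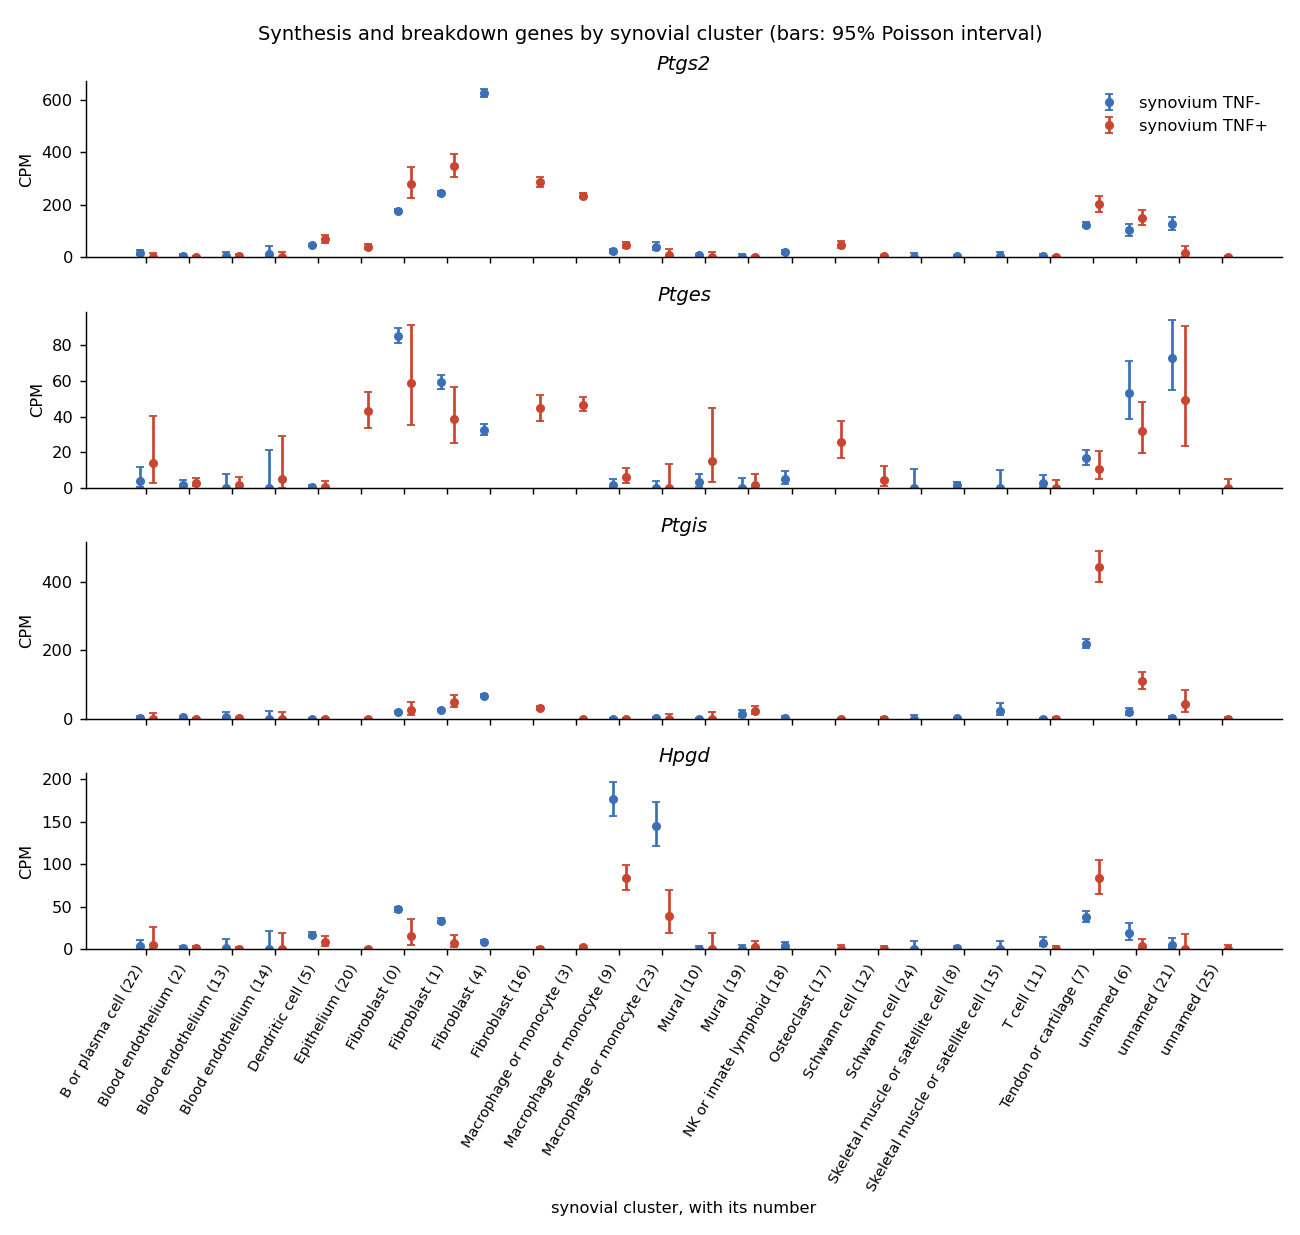
CPM of Ptgs2, Ptges, Ptgis and Hpgd in each synovial cluster with at least 50 cells in a library (horizontal axis, type name and cluster number), TNF- blue and TNF+ red, with 95% Poisson intervals; points with under 20 cells are left out. Macrophage-like cluster 3 and fibroblast-like cluster 16 have TNF+ points only, with Ptgs2 at 235 and 286 CPM, and Ptgis peaks in tendon-like cluster 7.

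Mesenchyme-like synovial cells had Ptgs2 at similar levels in both genotypes, 291 CPM (286 to 296) in TNF- and 265 CPM (252 to 278) in TNF+ (log2 ratio -0.14, -0.21 to -0.06). Among fibroblast-like cells alone it was at 317 and 328 CPM. Thinned cells of that type had Ptgs2 in 15.9% (14.6 to 17.3) without and 20.3% (15.9 to 25.2) with the transgene, and unthinned in 50% and 51.4%. The fibroblast-like clusters differed among themselves by more than the genotypes did. In TNF- synovium Ptgs2 was at 177 CPM in the cluster led by Cxcl14 and Smoc2, 245 CPM in the cluster led by Gdf10 and C4b, and 625 CPM (611 to 639) in the Pi16 cluster, which also had the most Ptgis of these clusters (68.0 CPM). Ptges ran the other way, at 85.3, 59.5 and 32.6 CPM.

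The largest fibroblast-like cluster of TNF+ synovium, led by Saa3, Cxcl5 and the collagenase Mmp13, had 169 TNF+ cells and 1 TNF- cell. It had Ptgs2 at 286 CPM (268 to 305), Ptges at 44.6 CPM (37.7 to 52.3), Ptgis at 32.0 CPM, Ptger4 at 35.6 CPM, Ptger2 at 7.18 CPM and Hpgd at 0.898 CPM. Fibroblast-like Hpgd was at 32.6 CPM (1500 UMIs) in TNF- and 3.10 CPM (14 UMIs) with the transgene (-3.39, -4.27 to -2.64). In the Gdf10 cluster, with 968 and 84 cells, it was at 33.9 and 7.41 CPM (-2.20, -3.82 to -0.96). Tendon- or cartilage-like cells went the other way, with Hpgd at 38.4 and 83.4 CPM (1.12, 0.69 to 1.54). Over all mesenchyme-like cells Hpgd was at 31.8 and 13.6 CPM (-1.22, -1.55 to -0.91), and over those clusters with at least 50 cells of each library its ratio was 0.04.

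Tendon- or cartilage-like cells also had the most Ptgis of the synovium, at 220.3 CPM (206 to 235) in 350 TNF- cells and 445 CPM (400.3 to 492) in 75 TNF+ cells (1.01, 0.83 to 1.19). It was found in 19.3% and 30.7% of thinned cells of that type (70.9% and 80.0% unthinned, median depths 10598 and 9152 UMIs). In fibroblast-like cells Ptgis was at 35.1 and 35.0 CPM. Over the mesenchyme-like lineage it was at 48.0 and 87.0 CPM (0.86, 0.72 to 0.99). This lineage value carries both the larger share of tendon-like cells in TNF+ and their higher level, and their parts were not separated. Ptges of the lineage was at 57.3 and 34.7 CPM (-0.72). Ptgs1 was called lower, at 11.3 and 3.37 CPM (-1.74, -2.45 to -1.12), and EP2 gene Ptger2 higher, at 0.925 CPM (48 UMIs) and 5.14 CPM (32 UMIs; 2.47, 1.78 to 3.15). That Ptger2 ratio was 0.18 over the clusters both libraries held. Ptger4 was at 23.4 and 27.0 CPM.

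Endothelium-like synovial cells had less of the EP4 gene Ptger4 in TNF+ tissue, at 71.1 CPM (237 UMIs) in TNF- and 31.5 CPM (136 UMIs) with the transgene (-1.18, -1.49 to -0.87). Their most numerous cluster gave 81.5 and 40.5 CPM (-1.01). Counted as UMIs per cell with no scaling to depth the lineage ratio was -0.41, the median depth of these cells being 4338 UMIs in TNF- and 6982 in TNF+. These cells also led the synovium in Ptgs1, at 21.9 CPM (17.2 to 27.5) and 13.7 CPM (10.4 to 17.6). Lymphocyte-like synovial cells had few UMIs: Ptgs2 had 56 in TNF- and 3 in TNF+ (14.3 and 2.55 CPM; -2.49, -4.81 to -0.87), and Hpgd had 22 and 1. Of the TNF- Ptgs2 UMIs, 36 were in innate lymphoid-like cells led by Il5, of which the TNF+ library held 16 cells. Epithelium-like cells, led by keratins in 2 clusters, were 3 of the TNF- and 179 of the TNF+ cells and had Ptges at 38.0 CPM (30 to 47.4) and Ptgs2 at 33.1 CPM in TNF+.

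In the lung, Hpgd marked endothelium-like cells. Its level was 2607 CPM (2580 to 2634, 36379 UMIs) in 2298 TNF- cells and 438 CPM (405 to 473, 659 UMIs) in 410 TNF+ cells, a log2 ratio of -2.57 (-2.69 to -2.46). Endothelium-like cells held 91.0% of the library's Hpgd UMIs in TNF- and 7.44% in TNF+ lung, where myeloid-like cells held 88.2%. Of the genes tested in lung endothelium-like cells, 20.2% passed the fold (10.1% in each direction). The TNF+ endothelium-like cells were shallow, with a median of 752 UMIs against 5543 in TNF-. With cells under 1000 UMIs left out the ratio was -2.48. Thinned to 1000 UMIs, 79.0% (77.2 to 80.8) of TNF- and 20.4% (14.3 to 27.7) of TNF+ blood endothelium-like cells had an Hpgd UMI (91.1% and 26.1% unthinned, at median depths of 5475 and 739 UMIs, with 261 and 254 shallower cells left out of thinning). In B-like cells, which should lack it, the shares were 2.37% and 0.5% (12.5% and 3.42% unthinned, 7278 and 7979 UMIs).

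No endothelium-like cluster had 50 cells of each library. General capillary-like cells had Hpgd at 2907 CPM in TNF- (1421 cells, against 5 in TNF+), large-vessel-like cells at 3169 CPM (59 against 1) and aerocyte-like cells, the thin capillary cells of the alveolus, at 1221 CPM (434 cells) and 178 CPM (35 cells). TNF+ endothelium was mostly 1 cluster of 88 cells led by Prnd, at 562 CPM (513 to 614), and 1 shallow cluster of 273 cells at 194 CPM (137 to 266). The library and the cell state cannot be told apart there.

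Endothelium-like cells of TNF+ lung also had less Ptgs1, at 57.1 CPM (797 UMIs) and 5.32 CPM (8 UMIs; -3.42, -4.64 to -2.44), and Ptgs2, at 7.17 CPM (100 UMIs) and 1.33 CPM (2 UMIs). Large-vessel-like cells of TNF- lung carried the whole prostacyclin branch, with Ptgs1 at 247 CPM (208 to 290.4), Ptgs2 at 139.6 CPM (111 to 174) and Ptgis at 259 CPM (219 to 303). In the lineage as a whole Ptgis was at 23.7 CPM (331 UMIs) and 27.3 CPM (41 UMIs), within 2-fold. Ptger4 was called higher from 34 and 13 UMIs (2.44 and 8.64 CPM; 1.83, 0.78 to 2.79), and was 0.41 with every deposited barcode kept. Ptges was called higher from 17 and 5 UMIs, with an interval from -0.35 to 2.95.

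Mesenchyme-like lung cells were the main site of prostacyclin synthase. Ptgis was at 481 CPM (460.1 to 504) in 553 TNF- cells and 289.8 CPM (247 to 338) in 215 TNF+ cells, a log2 ratio of -0.73 (-0.97 to -0.50) that is within 2-fold, beside -3.86 in the whole lung. The lineage was 7.90% of TNF- and 2.34% of TNF+ lung cells. Alveolar fibroblast-like cells had Ptgis at 574 CPM (147 cells) and 305 CPM (23 cells), and mural cells led by Hhip and Acta2 had it at 447 CPM (168 cells) and 401 CPM (22 cells). Ptges was at 45.6 and 70.6 CPM, EP2 gene Ptger2 at 42.8 and 43.5 CPM and Ptgs1 at 37.5 and 45.3 CPM, none past the fold. Counted as UMIs per cell, each was lower in TNF+: Ptges at 0.327 and 0.181, Ptger2 at 0.307 and 0.112 and Ptgs1 at 0.269 and 0.116. Ptgis was lower by that count too, at 3.46 and 0.744, and past 2-fold. Only Ptger4 of the 6 genes with enough UMIs was called, at 10.6 CPM (42 UMIs) and 29.0 CPM (16 UMIs; 1.46, 0.53 to 2.32). As UMIs per cell that ratio was -0.03, the median depth of these cells being 6462 UMIs in TNF- and 785 in TNF+, and with every deposited barcode kept it was 0.86. In this lineage 19.0% of genes passed the fold (8.84% higher, 10.1% lower).

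Epithelium-like cells had the second highest Ptgs1 of the lung lineages by CPM, at 117 and 209.6 CPM (0.84, 0.59 to 1.09). The alveolar type 2-like cluster, the surfactant makers, held 397 of the 404 TNF- and 174 of the 191 TNF+ UMIs, at 147 CPM in 165 TNF- cells and 286 CPM (245 to 331) in 46 TNF+ cells. It was found in 6.79% and 12.6% of thinned epithelium-like cells (37.2% and 40.1% unthinned, 8887 and 2820 UMIs), and in 0.103% and 0.206% of thinned T-like cells (9244 and 9023 UMIs). Ptgs2 ran opposite to Ptgs1, at 30.9 CPM (107 UMIs) and 5.49 CPM (5 UMIs; -2.50, -4.15 to -1.23), and Ptges was at 11.6 and 26.3 CPM (1.19, 0.39 to 1.95). Of all genes 19.0% passed the fold in epithelium-like cells (11.7% higher, 7.37% lower).

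Among lung lineages, platelets and their precursors had the highest Ptgs1 and Tbxas1 by CPM, the thromboxane pair. Finer classes came near them in Tbxas1, with alveolar macrophage-like cells at 357 and 299 CPM and C1q-rich macrophage-like cells at 351 and 243 CPM. In TNF+ lung a deeper cluster of alveolar macrophage-like cells exceeded platelets in Tbxas1. The alveolar type 2-like cluster was above platelets in Ptgs1 there, with overlapping intervals. Ptgs1 was at 435 CPM (357 to 525) in 200 TNF- cells and 268 CPM (185 to 377) in 119 TNF+ cells, and Tbxas1 at 383 CPM (309.7 to 468) and 317 CPM (225 to 433). Neither passed the fold, and both rest on 33 to 108 UMIs in cells with median depths of 706 and 715 UMIs. In TNF+ lung the Ptgs1 interval of platelets overlapped that of epithelium-like cells. Hpgd was called lower there from 38 and 8 UMIs, where 19.8% of genes passed the fold (11.7% higher, 8.05% lower).

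Myeloid-like lung cells, 1034 in TNF- and 4735 in TNF+, had lower Ptgs2, Tbxas1 and Ptgis among the 9 genes tested, where 21.3% of genes passed the fold (4.25% higher, 17.0% lower). Ptgs2 was at 54.3 CPM (547 UMIs) and 3.75 CPM (174 UMIs; -3.86, -4.11 to -3.61). Neutrophil-like cells held 494 and 152 of these UMIs, at 326 CPM (298 to 356) in 302 cells and 132 CPM (112 to 154) in 175 cells (-1.31, -1.58 to -1.04). Neutrophil-like cells were 4.32% of TNF- and 1.91% of TNF+ lung cells, while macrophage- or monocyte-like cells, with 18 and 16 Ptgs2 UMIs in all, were 8.76% and 45.9%. Thinned, 13.9% (10.2 to 18.4) and 8.93% (5.08 to 14.3) of neutrophil-like cells had a Ptgs2 UMI (24.8% and 17.7% unthinned, at 4452 and 6142 UMIs), and these intervals overlap. Mast cell- or basophil-like cells had 34 Ptgs2 UMIs in 21 TNF- cells (267 CPM) and 0 in 7 TNF+ cells. The immediate-early list summed to 5052 and 2958 CPM in myeloid-like lung cells, and its part in Ptgs2 was not tested.

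Tbxas1 was at 144 and 64.8 CPM over myeloid-like lung cells (-1.15, -1.24 to -1.06), and -0.46 with every deposited barcode kept. It was high in alveolar macrophage-like cells, at 357 CPM (141 cells) and 299 CPM (906 cells; -0.25, -0.42 to -0.09), and in C1q-rich macrophage-like cells, at 351 and 243 CPM, and was low in nonclassical monocyte-like cells, at 17.5 and 8.38 CPM, which numbered 279 in TNF- and 2559 in TNF+. Prostaglandin D2 synthase Hpgds was highest by CPM in C1q-rich cells, at 263 CPM (228 to 302) in 62 cells and 225 CPM (209 to 241) in 258 cells, which held 35.3% and 55.4% of its UMIs. Lymphocyte-like cells held 43.6% and 25.0%, at 11.3 and 10.4 CPM. Alveolar macrophage-like cells had Ptges at 14.2 CPM (23 UMIs) and 33.8 CPM (70 UMIs; 1.26, 0.56 to 2.0), but 0.163 and 0.0773 UMIs per cell. They formed a deeper cluster of 107 TNF- and 71 TNF+ cells, with Tbxas1 at 369 and 553 CPM and Ptges at 14.7 and 67.3 CPM, and a shallow cluster of 34 and 835 cells, with Tbxas1 at 77.7 CPM in TNF+. Ptgis was at 5.07 CPM (51 UMIs) and 0.625 CPM (29 UMIs) over the lineage, but -0.60 with each cell weighted equally. Of these UMIs, 40 and 2 were in classical monocyte-like cells.

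By CPM, Hpgd was lower in nonclassical and classical monocyte-like and in C1q-rich macrophage-like cells of TNF+ lung. Alveolar macrophage-like cells as a whole had 25.2 and 25.6 CPM (0.02, -0.60 to 0.64) in 141 and 906 cells. As UMIs per cell those alveolar cells had 0.291 in TNF- and 0.0585 in TNF+, at median depths of 12832 and 757 UMIs. Nonclassical monocyte-like cells had 578 CPM (549 to 608) and 242 CPM (236 to 248) (-1.25, -1.34 to -1.17), classical monocyte-like cells 298 and 70.0 CPM (-2.09, -2.26 to -1.92), and C1q-rich macrophage-like cells 569.9 and 159 CPM (-1.84, -2.02 to -1.66). Over all myeloid-like cells it was at 279.9 and 168 CPM (-0.73, -0.80 to -0.67), and nonclassical monocyte-like cells were 279 of 1034 and 2559 of 4735. B-like cells went from 21.6 to 5.45 CPM and T-like cells from 15 to 3.93 CPM. Only B-like cells were taken as a class without the gene, and the part of free RNA in the myeloid values was not tested.

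The EP4 gene Ptger4 was shared by myeloid- and lymphocyte-like lung cells. Myeloid-like cells had 74.2 CPM (69.0 to 79.7) and 93.1 CPM (90.3 to 95.9) (0.33, 0.21 to 0.44) and lymphocyte-like cells 48.8 and 47.5 CPM, where 16.3% of genes passed the fold (6.24% higher, 10.0% lower). In the T-like cluster led by Foxp3, the regulator of regulatory T cells, it was at 96.7 CPM (82.2 to 113) in 166 cells and 115 CPM (106 to 124) in 625 cells. B-like cells went the other way, at 33.9 and 16.7 CPM (-1.02, -1.25 to -0.79). EP2 gene Ptger2 was called higher in lymphocyte-like cells, at 2.11 CPM (46 UMIs) and 5.53 CPM (188 UMIs; 1.39, 0.92 to 1.89), of which T-like cells had 3.18 and 11.6 CPM. Ptges was at 1.10 and 3.65 CPM (1.73) and Ptgs2 at 2 and 22 UMIs in lymphocyte-like cells. In all, 40 pairs of gene and lung lineage had enough UMIs, of which 8 were higher, 11 lower and 21 within 2-fold. Of all genes in the 6 lineages, 16.3% to 21.3% passed the fold (4.25% to 11.7% higher, 7.37% to 17.0% lower). Among the pairs called higher, Ptges in endothelium-like and Tbxas1 in epithelium-like cells had intervals that include no change. That Tbxas1 call rests on 17 and 9 UMIs (1.01, -0.34 to 2.25).

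**Figure D4:**
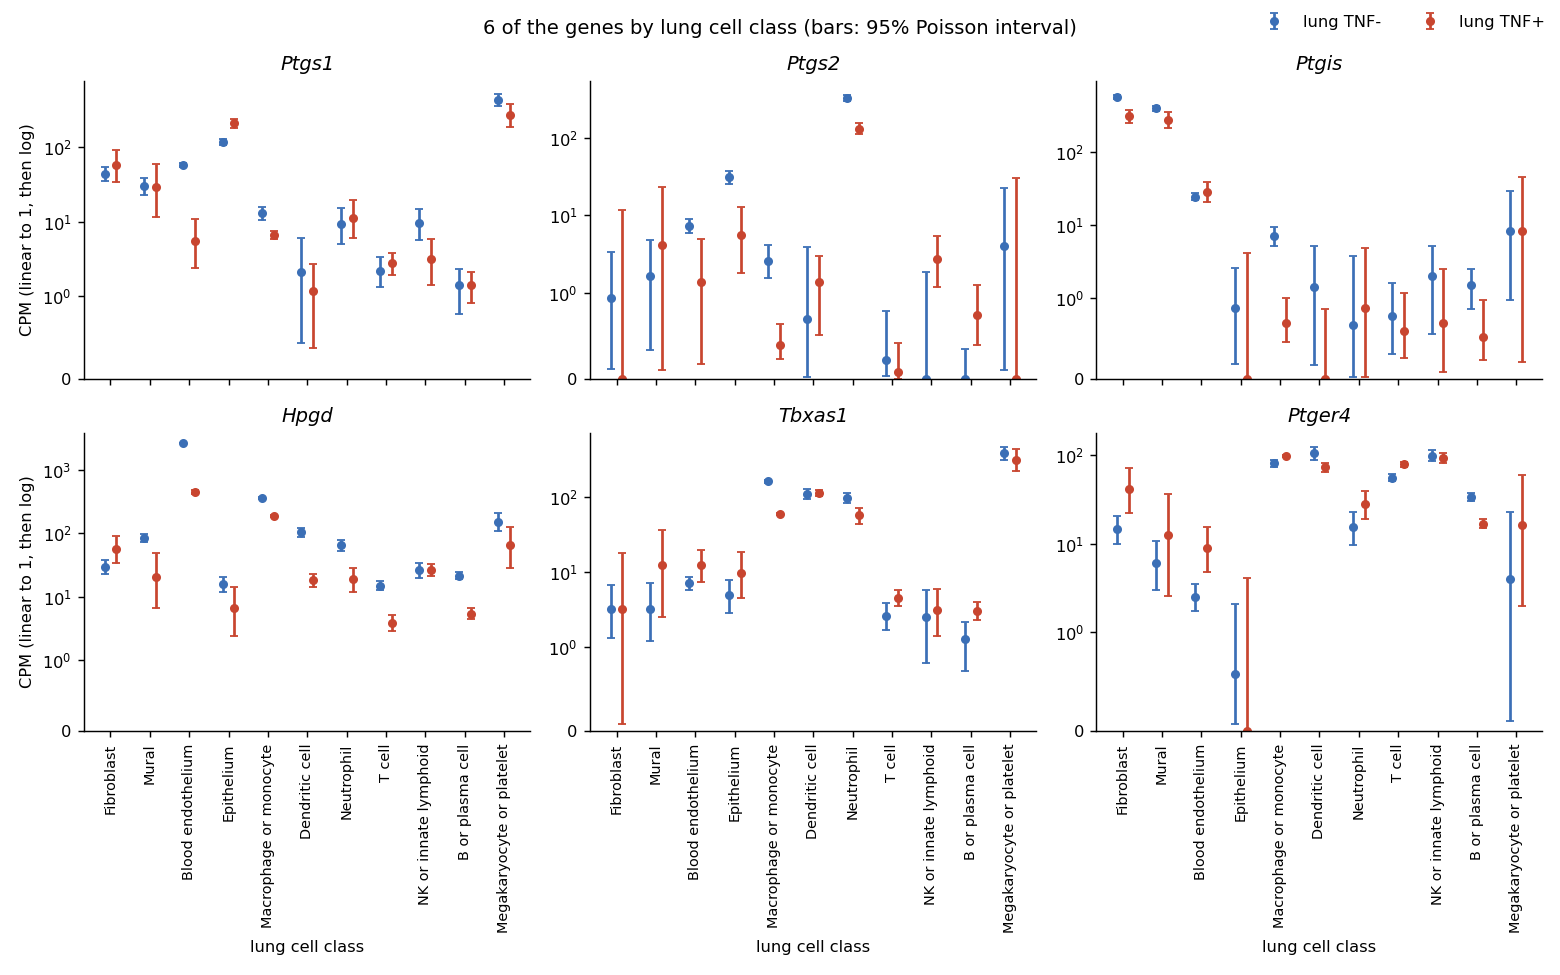
CPM of 6 of the genes in 11 lung cell classes (horizontal axis), TNF- blue and TNF+ red, with 95% Poisson intervals and an axis that is linear to 1 CPM and logarithmic above. Hpgd in blood endothelium stands at 2664 CPM (TNF-) and 453 CPM (TNF+ cells), Ptgs2 is highest in neutrophils of both genotypes, and Ptgs1 and Tbxas1 are highest in platelets.

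To set the lineage levels against the make-up, each TNF+ lineage level was weighted by that lineage's share of UMIs in the TNF- library. Only lineages with at least 50 cells in both libraries of the tissue were used, 5 in synovium and 6 in lung. Shares were taken over these lineages, so synovial muscle-like and epithelium-like cells and all unnamed cells were left out. The starting ratios therefore differ somewhat from those over all kept cells. In lung the ratio of Ptgis went from -3.86 to -0.58, of Ptgs1 from -2.04 to -0.49 of Ptger4 from 1.02 to 0.23, of Ptges from 0.27 to 0.85 and of Tbxas1 from 0.26 to -0.71, across 0, while Hpgd (-2.84 to -2.29) and Ptgs2 (-2.54 to -2.98) stayed past 2-fold. In synovium Tbxas1 went from 1.05 to -0.67, Hpgds from 0.98 to -0.52 and Ptgis from -0.95 to 0.84, each across 0, and Ptgs2 went from -0.47 to -0.01. Ptgs1 (-1.57 to -1.63), Hpgd (-1.70 to -1.43) and Ptger2 (1.29 to 1.32) moved little. The calculation takes lineages as uniform, which the cluster values above show they were not.

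**Figure D5:**
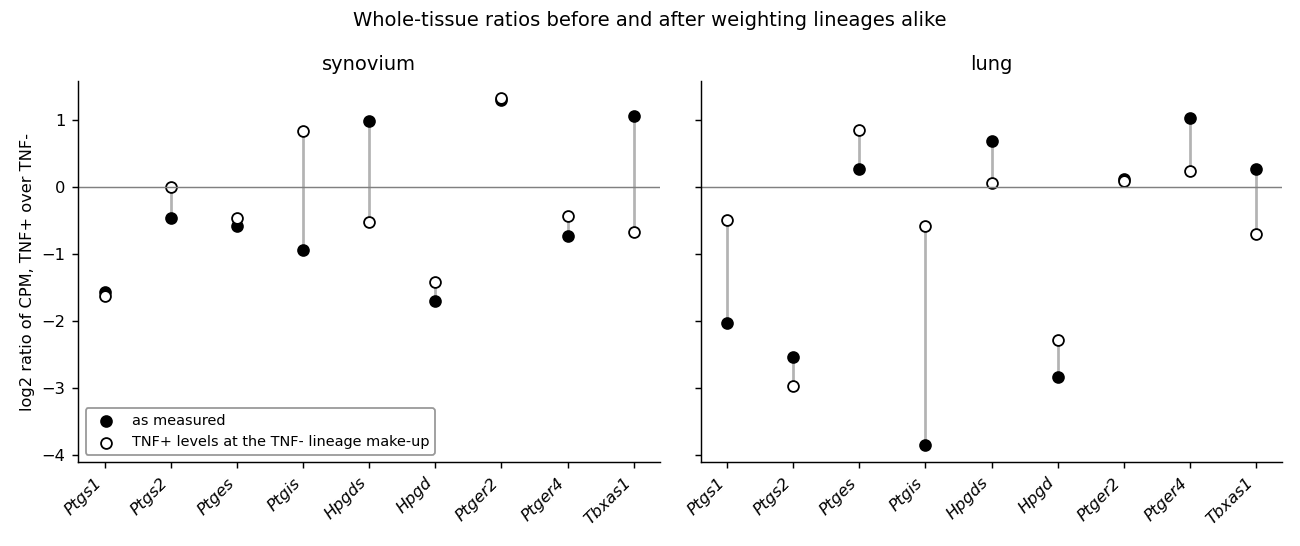
Log2 ratio of CPM, TNF+ over TNF-, for 9 genes in synovium (left) and lung (right). Filled points are as measured over lineages with at least 50 cells of each library. Open points have TNF+ lineage levels weighted by the TNF- make-up. Lung Ptgis moves from -3.86 to -0.58 and synovial Tbxas1 from 1.05 to -0.67, while lung Hpgd moves from -2.84 to -2.29.

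Other genes of the pathway were taken from written lists, and their counts stand beside the 33.6% of all genes past the fold in whole synovium and 31.3% in whole lung. Of 8 further synthesis genes 2 were higher and none lower in whole TNF+ synovium, and 2 of 7 tested were higher in lung. Of the receptors, 1 of 5 tested was lower in synovium, and 3 were lower and 1 higher of 5 in lung. Of 4 transport and breakdown genes, 1 was higher in synovium and 1 lower in lung. Of 7 genes of the leukotriene arm, the other use of arachidonic acid, 3 were higher in synovium and 2 in lung, and none lower in either. Within myeloid-like cells none of these was higher, and 2 of 6 tested in synovium (summed 745 and 741 CPM) and 3 of 7 in lung (1009 and 686 CPM) were lower, where myeloid-like cells made up 10.1% and 38.9% of synovial and 14.8% and 51.6% of lung cells. In whole synovium Alox5ap, which presents arachidonic acid to 5-lipoxygenase, was at 68.8 and 305 CPM, and the leukotriene C4 synthase Ltc4s at 1.69 and 14.6 CPM. Alox5 was at 4.33 and 13.1 CPM, Prxl2b at 8.19 and 25.2 CPM, Ptgr1 at 7.06 and 21.5 CPM, and the prostaglandin F receptor Ptgfr at 13.3 and 2.09 CPM.

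In lung the prostaglandin uptake carrier Slco2a1, which brings prostaglandins to Hpgd, was at 326 and 13.6 CPM (-4.59, -4.67 to -4.50). Within endothelium-like cells it was at 1196 and 496 CPM (-1.27, -1.38 to -1.16). The secreted phospholipase Pla2g2d was at 0.242 CPM (13 UMIs) and 29.7 CPM (2505 UMIs), of which 10 and 2255 were in myeloid-like cells. The leukotriene B4 receptor Ltb4r1 was at 17.6 and 50.7 CPM, the prostacyclin receptor Ptgir at 4.09 and 15.9 CPM, the thromboxane receptor Tbxa2r at 18.8 and 5.55 CPM and Prxl2b at 5.82 and 15.6 CPM.

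Across the 24 groups of lineage and library, the genes most like each member by Pearson r of log2(CPM + 1) were, among 13869 genes with at least 500 UMIs, Serpinb2 (0.955) and Alox5ap (0.934) for Tbxas1, C1qtnf7 and Mfap4 (both 0.934) for Ptgis, Tnfaip8l2 (0.915) for Hpgds, Ttyh3 (0.885) and Nostrin (0.844) for Hpgd, Prkaca (0.864) for Ptgs1, Gm17173 (0.847), which overlaps it on the other strand, for Ptger2, Cercam (0.828) for Ptges, Zfp36l2 (0.809) for Ptger4, and 4921516A02Rik (0.767), Ptgs2os (0.751) and Hk2 (0.749) for Ptgs2. These groups share libraries and depths, so r is a description. Ptgds had too few UMIs, and its 12 UMIs in TNF- muscle-like cells were 75.0% of that library's.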

How the data were processed

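Single-cell 3′ RNA sequencing libraries of lung and synovium, 1 per genotype and tissue, were analysed from the filtered gene-by-barcode UMI counts that the authors deposited. Per the labels, the authors made these counts with Cell Ranger 7.0.1 on mouse build mm10; this version counts intronic reads by default. The 10 genes, the other gene lists and the rules were chosen with earlier results of these data known. Barcodes with 200 to 5000 genes and at most 20% mitochondrial UMIs were kept. Cells of each tissue were clustered with scikit-learn 1.9.0, igraph 0.11.9 and leidenalg 0.10.2. Settings were 2000 variable genes without the pathway genes, 30 principal components, 20 neighbours and Leiden resolution 0.8. Clusters were named from written markers. A pseudocount of 1 CPM in naming, and the weighting by make-up, were chosen after seeing the data. Doublets were not removed except as an alternative (scanpy 1.11.5). UMIs were summed by group and library and given as CPM with exact Poisson intervals, shares with Clopper-Pearson intervals, and ratios with a conditional binomial interval (scipy 1.17.1). Ratios needed at least 20 UMIs. Libraries held 33047125 to 84398714 UMIs in kept cells. With 1 library per group no test between genotypes was possible. Scripts were tested on simulated data. Members are all 10 genes. Genes of other lists were named, up to 6 per tissue, by highest CPM among those past 2-fold with an interval excluding no change.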

Additional observations from a re-analysis of the deposited data

Results flagged for a closer look

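In 3 pairs of gene and lineage the ratio of TNF+ over TNF- had opposite signs in the 2 tissues, each past 2-fold. The difference between tissues was not tested, as each group was 1 library. Ptger4 in endothelium-like cells had a log2 ratio of -1.18 in synovium and 1.83 in lung. The lung value rests on 34 and 13 UMIs, and was within 2-fold with every deposited barcode kept. In synovium the UMIs per cell were 0.336 in TNF- and 0.252 in TNF+, also within 2-fold. Ptgs2 in myeloid-like cells had a log2 ratio of 1.77 in synovium and -3.86 in lung. The UMIs lay in different cells, mostly a macrophage-like cluster of TNF+ synovium and neutrophil-like cells of lung. Ptgs2 in lymphocyte-like cells had a log2 ratio of -2.49 in synovium, from 56 and 3 UMIs, and 2.82 in lung, from 2 and 22 UMIs.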

How the results depend on the processing

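No paired analysis was possible because each group was 1 library, so the groups share only 1 replicate number. Of 1103 values of single genes under the alternatives, 936 moved by less than their counting interval and 163 by more. The settings with a minimum of 5 or 100 UMIs cannot move a ratio, and gave 85 and 64 of the 936. Ratios that fell under the minimum or had a count of 0 under an alternative were left out. The tally is therefore no measure of stability. A change of sign was counted only for ratios past 2-fold in the main setting, and 4 of those changed sign. Ratios within 2-fold that changed sign were not counted separately. The 4 were Hpgd over clusters with at least 50 cells of each library in synovial mesenchyme-like (0.04) and myeloid-like cells (0.01), Ptger4 in lung mesenchyme-like cells as UMIs per cell (-0.03), and Hpgd in lung epithelium-like cells with lineages set per cell by summed markers (0.67). With each cell weighted equally, 2 genes passed the fold in the whole synovium instead of 4. Among synovial pairs of gene and lineage, 7 of 17 passed with a minimum of 100 UMIs and 22 of 35 with lineages by summed markers, instead of 12 of 26. Among lung pairs, 9 of 29 passed with that minimum and 8 of 23 over clusters with at least 50 cells of each library, instead of 19 of 40. With every barcode kept, the whole-synovium ratio of Tbxas1 was 0.36 and the whole-lung ratio of Ptgs1 was -0.63. Ptgis in lung myeloid-like cells was -1.03 with doublets removed. The cause was not tested. Low UMI counts in TNF+ lung endothelium- and mesenchyme-like cells and in all lymphocyte-like values of Ptgs2 limit what could be seen.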
